A study of Rattus norvegicus with 6 samples.

Results

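Microglia, the resident macrophages of the brain, and the cytokine and NF-kappaB genes of inflammation were followed through 36 genes in rat organotypic hippocampal cultures whose GABA-A receptors were blocked with gabazine. The genes were chosen by name, and every probe set annotated with that gene symbol and no other was taken. All 36 had a probe set, 29 of them 1 and 7 of them 2, which gave 43 of the 31099 probe sets and 36 of the 14218 named genes on the array. By role, 21 are microglial genes (surface and lineage genes, phagocytic and lysosomal genes, the chains of complement C1q, and innate immune receptors) and 15 are inflammatory genes (cytokines, chemokines, NF-kappaB subunits, feedback inhibitors and an adhesion molecule).

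The gabazine group held 3 samples of cultures exposed to 20 µM gabazine for 90 min, and the control group held 3 samples of untreated cultures. Both groups were hippocampal slices of Wistar rats, postnatal day 4 in the labels, grown by the roller tube method, and no allele or further agent is named for either. Within each of the 3 replicas, cultures of 2 littermates were divided between both conditions, and each replica number is therefore treated as a pair. Gabazine is an antagonist of the GABA-A receptor, the main inhibitory receptor of the hippocampus, and the study asked which transcripts answer the resulting rise in synaptic activity. Total RNA of whole cultures was hybridised to 6 Affymetrix arrays, and the deposited values are RMA log2 intensities. The cultures mix neurons, glia, vessels and meningeal remnants, so fewer cells of a type and less RNA per cell cannot be told apart.

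As background, microglia depend on the receptor Csf1r, survey the tissue through receptors such as P2ry12 and Cx3cr1, and supply most of the complement C1q of the brain. In resting cells the inhibitor IkappaB-alpha, encoded by Nfkbia, holds NF-kappaB in the cytoplasm. Once freed, NF-kappaB switches on cytokines, chemokines and adhesion molecules, and it also switches on Nfkbia and Tnfaip3, which then shut the pathway down. In brain tissue these inflammatory genes are not specific to microglia, since astrocytes, endothelial cells and, for some of them, neurons can also transcribe them.

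The array medians were 8.71, 7.89 and 8.68 in gabazine samples 1, 2 and 3, and 8.63, 7.90 and 8.71 in control samples 1, 2 and 3, so that both arrays of replica 2 lay lower than the rest. Comparisons of samples across replicas are on this deposited scale, and carry that offset, unless centring on the array median is named. For each pair, the log2 ratio is the value with gabazine less that of its own control, and its SD over all probe sets was 0.475, 0.247 and 0.230 in pairs 1, 2 and 3. Between 16.1% and 25.7% of probe sets had identical values in both arrays of a pair, which held for 2, 6 and 6 of the 43 probe sets of these genes in pairs 1, 2 and 3. The 5′ probe sets of the rat control transcripts exceeded their 3′ probe sets in log2 ratio by a median of 0.50, -0.02 and -0.08 in pairs 1, 2 and 3. Pair 1 thus had the widest ratios and the largest shift between transcript ends, and the part of these in its ratios was not tested. For the control gene Gapdh the log2 fold change was 0.07 (standard error 0.04). The sample labels identify no animal, and the p-values measure the spread between these 3 pairs.

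Over the 3 pairs, 90 min of gabazine gave no call for any of the 36 genes. In the paired limma fit, with Benjamini-Hochberg adjustment over every probe set of the array, 0 of 36 passed 0.05 in either direction, beside 0.0% of probe sets called higher and 0.0% called lower over the whole array, where an unadjusted p under 0.05 was reached by 571 probe sets upwards and 835 downwards. At an unadjusted p under 0.05 the same fit gave 0 of 36 genes higher and 0 lower, while 2.37% of all genes were higher and 2.84% lower. The smallest unadjusted p of limma among the 36 was 0.104, for Nfkb1, followed by 0.105 for Nfkbia, and the smallest adjusted p was 0.747. An exact sign-flip test of a single gene cannot go below 0.25 with 3 pairs. On the deposited scale, in none of the 36 did the gabazine samples lie wholly above or wholly below the control samples, a separation found in 0.239% of all genes upwards and 0.0563% downwards. On that scale 12645 of 14218 genes were lowest in replica 2 among the gabazine samples and 13017 among the controls, so that few genes could separate. The separation was not counted with each array centred on its median.

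The mean log2 fold change was above 0 in 23 genes and below 0 in 13, and the median of the 36 was 0.10, against -0.01 over all genes. None exceeded 1 in size. For 25 of the 36 the 95% confidence interval lay between -1 and 1, and for the rest it reached beyond these bounds. Only 2 genes were higher in all 3 pairs (Cx3cr1 and Nfkb1), which is 5.56% of the 36 beside 7.79% of all genes, and 2 were lower in all 3 pairs (Csf1r and P2ry12), beside 10.8% of all genes. Each share rests on 2 genes and changed with scaling. With each array centred on its median, 13.9% of the 36 were higher in all 3 pairs, beside 12.7% of all genes, and 2.78% were lower, beside 10.7%.

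The pairs parted company on the inflammatory genes. In pair 3 all 15 of them were higher with gabazine, with a median log2 ratio of 0.47, whereas in pair 2 the count was 3 higher, 10 lower and 2 tied, with a median of -0.16. In pair 1 the count was 8 higher, 6 lower and 1 tied, with a median of 0.04. The 21 microglial genes stayed closer together, with medians of -0.14, -0.09 and 0.04 in pairs 1, 2 and 3. Over all genes 33.9%, 34.3% and 48.1% were higher in pairs 1, 2 and 3, with medians of -0.01, 0.00 and 0.00. Across the 36 genes the log2 ratios of pairs 2 and 3 had a Pearson correlation of -0.56 (Spearman -0.20), those of pairs 1 and 3 of 0.30 (Spearman 0.26) and those of pairs 1 and 2 of 0.02 (Spearman 0.08), given as a description of genes that share arrays. Over all genes the same Pearson values were 0.06, 0.38 and 0.05.

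Counted by size, 6 genes were over 1.5-fold higher in pair 1 (Cxcl10, Cxcl1, Nfkbia, Socs3, Itgam and Cx3cr1), beside 3.86% of all genes, and 3 were over 1.5-fold lower (P2ry12, Ptprc and Fcgr2b), beside 5.53%. In pair 2 the count was 0 higher, beside 1.33% of all genes, and 2 lower (Ccl2 and Fcgr2b), beside 1.07%. Pair 3 had 7 over 1.5-fold higher (Ccl2, Cxcl1, Nfkbia, Il1b, Il6, C1qc and Tnfaip3), beside 1.36%, and 0 lower, beside 0.556%. Nfkbia and Cxcl1 were the 2 genes past this line in both pairs 1 and 3, and neither was in pair 2.

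**Figure D1:**
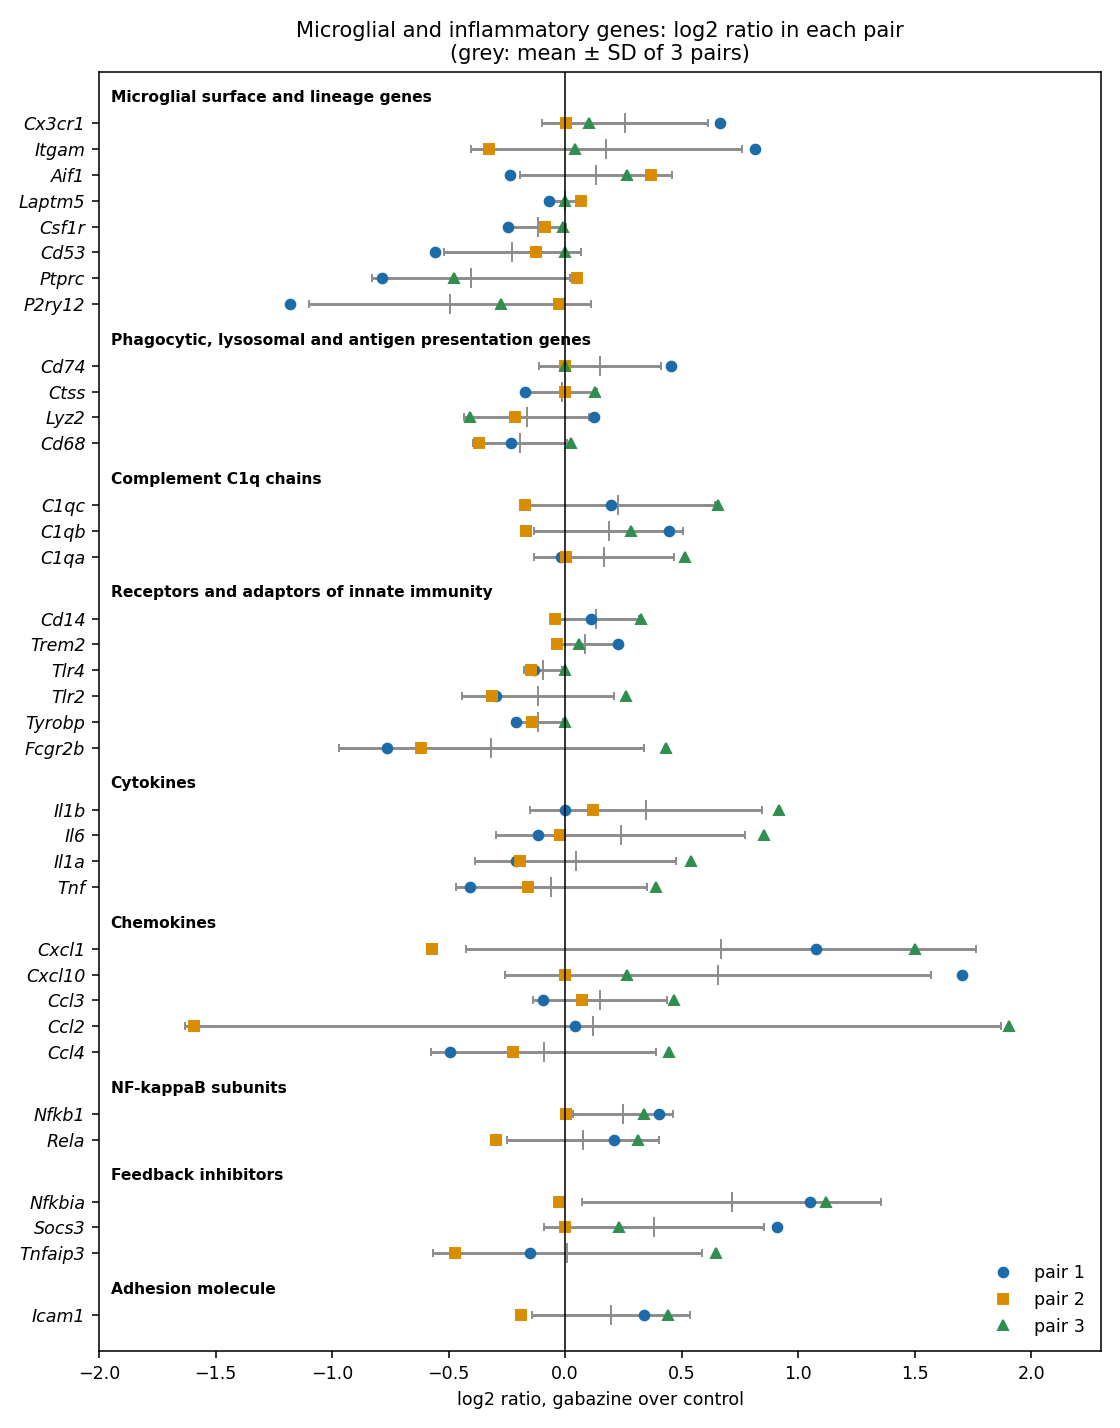
Log2 ratio of gabazine over control (x axis) for each of the 36 genes (rows, grouped by role), with a point for each of the 3 pairs and a grey bar for their mean ± SD. All 15 inflammatory genes lie to the right of 0 in pair 3, while in pair 2 only 3 of them do, and the longest bar belongs to Ccl2, whose pairs run between -1.59 and 1.91.

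The feedback inhibitors of the pathway included the gene with the highest mean of the 36. Nfkbia had 11.84, 10.08 and 11.21 in gabazine samples 1, 2 and 3, against 10.79, 10.10 and 10.09 in the paired controls. On this deposited scale, where both arrays of replica 2 lay lower as a whole, gabazine samples 1 and 3 stood above every control and gabazine sample 2 below every control. The groups thus overlapped. They also overlapped with each array centred on its median. There gabazine sample 2 lay above controls 1 and 3 and just below control 2. The log2 ratios were 1.05, -0.03 and 1.12, and the mean log2 fold change was 0.72 (standard error 0.31, 95% interval -0.28 to 1.71, limma adjusted p 0.747). Socs3, which encodes a brake on JAK-STAT signalling from cytokine receptors, had 7.70, 6.86 and 7.47 with gabazine, against 6.79, 6.86 and 7.24 in controls. Its ratio was 0.91 in pair 1, exactly 0 in pair 2 and 0.23 in pair 3, with a mean of 0.38 (standard error 0.23). The value in control 1 (6.79) lay just below the lower quartile of that array (6.81). Tnfaip3, whose product A20 removes activating ubiquitin chains from the pathway, showed no common direction. It had 9.36, 9.38 and 10.34 with gabazine, against 9.51, 9.85 and 9.69 in controls, with a mean of 0.01 (standard error 0.28). On the deposited scale only gabazine sample 3 stood above all controls. With each array centred on its median, no gabazine sample did. Control 2 then stood 0.68 above the control mean, and gabazine sample 3 stood 0.39 above the gabazine mean.

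The promoter stretches of the 3 genes with the highest mean change and a sequence in the RefSeq table are shown because all 3 carry the kappaB motif, the DNA element read by NF-kappaB. Each runs 5′ to 3′ on the gene's strand, from 250 bases before the listed start to 50 after it in the GRCr8 assembly, with the kappaB motif of either strand in capitals, and positions give the 5′ base of a match counted back from that start. Nfkbia lies at chr6:78597023-78597322, minus strand, with the motif at position -31, and that start lies 235 bases inside the annotated gene. Cxcl1 lies at chr14:17479272-17479571, minus strand, where motifs of both strands overlap from position -84. Cxcl10 lies at chr14:15988816-15989115, plus strand, with a motif at position -187 and a pair of overlapping ones from position -128.
Nfkbia: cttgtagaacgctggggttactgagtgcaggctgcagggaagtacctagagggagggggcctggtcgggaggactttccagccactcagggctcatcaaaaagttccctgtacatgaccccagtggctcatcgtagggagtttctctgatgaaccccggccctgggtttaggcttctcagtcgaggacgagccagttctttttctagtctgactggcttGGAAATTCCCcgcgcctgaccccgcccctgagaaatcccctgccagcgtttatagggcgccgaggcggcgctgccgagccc
Cxcl1: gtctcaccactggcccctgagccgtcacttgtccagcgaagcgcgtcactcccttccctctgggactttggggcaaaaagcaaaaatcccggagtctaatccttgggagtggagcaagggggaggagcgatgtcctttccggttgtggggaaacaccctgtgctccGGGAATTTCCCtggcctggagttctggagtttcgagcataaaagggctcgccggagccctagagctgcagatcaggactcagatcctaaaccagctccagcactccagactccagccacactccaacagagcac
Cxcl10: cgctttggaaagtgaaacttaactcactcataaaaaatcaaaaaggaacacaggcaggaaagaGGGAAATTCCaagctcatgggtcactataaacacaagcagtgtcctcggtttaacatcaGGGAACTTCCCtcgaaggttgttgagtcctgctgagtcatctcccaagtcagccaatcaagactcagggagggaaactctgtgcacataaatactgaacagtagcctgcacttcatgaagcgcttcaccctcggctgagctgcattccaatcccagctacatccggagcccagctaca

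Promoters of 28 of the 36 genes were in the table, matched by symbol, and in 11 of the 28 the listed start is the outermost start of the annotated gene. The kappaB motif, searched on both strands, was found in 7 of the 12 inflammatory promoters (58.3%) and in 3 of the 16 microglial ones (18.8%), while 7.51% of all 33469 promoters of this length held it. The other inflammatory promoters that held it were those of Il6, Nfkb1, Socs3 and Tnfaip3. Such a match describes the letters and says nothing of binding in these cultures, and the genes that held it included Cxcl1, with 2 pairs higher, and Tnfaip3, with 2 pairs lower.

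Chemokines, the secreted attractants of leukocytes, held the widest differences between pairs. Cxcl1, a neutrophil attractant, had 9.70, 10.39 and 11.57 with gabazine, against 8.62, 10.96 and 10.07 in controls. It was 2.11-fold and 2.83-fold higher in pairs 1 and 3 and lower in pair 2 (log2 ratio -0.57), with a mean of 0.67 (standard error 0.52). On the deposited scale the control of replica 2 stood above gabazine samples 1 and 2. With each array centred on its median, control 2 stood above all gabazine samples, at 1.59 above the control mean. Cxcl10, an interferon-inducible attractant of T cells, had 9.04, 7.06 and 7.87 with gabazine, against 7.34, 7.06 and 7.61 in controls. Its mean of 0.66 (standard error 0.44) rested mainly on gabazine sample 1, with ratios of 1.70, 0.00 and 0.27, and without pair 1 it was 0.13. Ccl2, the main attractant of monocytes, had 11.42, 9.88 and 12.83 with gabazine, against 11.37, 11.47 and 10.93 in controls. The gabazine samples thus held both the lowest and the highest value of the 6, with ratios of 0.04, -1.59 and 1.91, and the mean of 0.12 (standard error 0.84) turned to -0.77 without pair 3 and to 0.97 without pair 2. Ccl3, a macrophage inflammatory protein, had ratios of -0.09, 0.07 and 0.47, and the related Ccl4 had -0.49, -0.22 and 0.45.

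Ccl7, a monocyte attractant that is no member of the 36 and was chosen after its values were seen, followed the pattern of Ccl2. It had 10.40, 8.14 and 11.30 with gabazine, against 10.16, 9.86 and 9.47 in controls, with ratios of 0.25, -1.72 and 1.84. As for Ccl2, gabazine sample 2 was the lowest and gabazine sample 3 the highest of the 6 samples.

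Of the cytokines, Il1b, Il6, Il1a and Tnf were all higher in pair 3, and none was called. Il1b, the secreted interleukin-1 of activated macrophages, had 7.68, 7.76 and 8.59 with gabazine, against 7.68, 7.64 and 7.67 in controls. The mean log2 fold change was 0.35 (standard error 0.24). On the deposited scale the controls were nearly equal (SD 0.02) and gabazine sample 3 stood apart. With each array centred on its median, the controls ranged over 0.78. Gabazine samples 2 and 3 then stood 0.29 and 0.32 above the mean of their group, and sample 1 stood at -0.61. Il6, a cytokine that signals through Stat3, had 6.71, 7.01 and 6.99 with gabazine, against 6.83, 7.03 and 6.13 in controls. Here the control of replica 3 was the low sample, which gave ratios of -0.12, -0.02 and 0.85. Both values of Il6 in pair 3 lay below the lower quartile of their arrays (7.05 in each), as did that of Il1a in control 3 (6.80). In pair 1, where the quartiles were 6.93 with gabazine and 6.81 in the control, both values of Il1a (6.27 and 6.48) lay below them. So did that of Il6 in gabazine sample 1 (6.71). Tnf, a cytokine that activates NF-kappaB in its target cells, had 7.53, 8.04 and 8.81 with gabazine, against 7.94, 8.20 and 8.42 in controls. Its ratios were -0.41, -0.16 and 0.39, and its other, dimmer probe set had 0.00, 0.00 and 0.13. Il1a, the interleukin-1 released by damaged cells, had -0.21, -0.19 and 0.54, while its other probe set had 0.24, 0.00 and 0.08, so that the probe sets of this gene differed in direction in pair 1.

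The NF-kappaB subunits differed little between conditions. Nfkb1, which encodes the p105 precursor of the p50 subunit, had 11.29, 10.32 and 11.35 with gabazine, against 10.88, 10.32 and 11.01 in controls. It was higher in pairs 1 and 3 (0.40 and 0.34) and all but equal in pair 2, with a mean of 0.25 (standard error 0.11). Rela, the transactivating p65 subunit, had 11.32, 10.15 and 10.95 with gabazine, against 11.11, 10.44 and 10.64 in controls, with a mean of 0.08 (standard error 0.16). Icam1, the adhesion molecule that holds leukocytes to endothelium, had 11.06, 8.96 and 10.53 with gabazine, against 10.72, 9.15 and 10.09 in controls. Its ratios of 0.34, -0.19 and 0.44 took the same signs as those of Rela. On the deposited scale the samples of replica 2 were the lowest of each group for both genes, as for 12645 of 14218 genes with gabazine and 13017 in controls. With each array centred on its median, control 2 was the highest control for Rela and the lowest for Icam1.

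**Figure D2:**
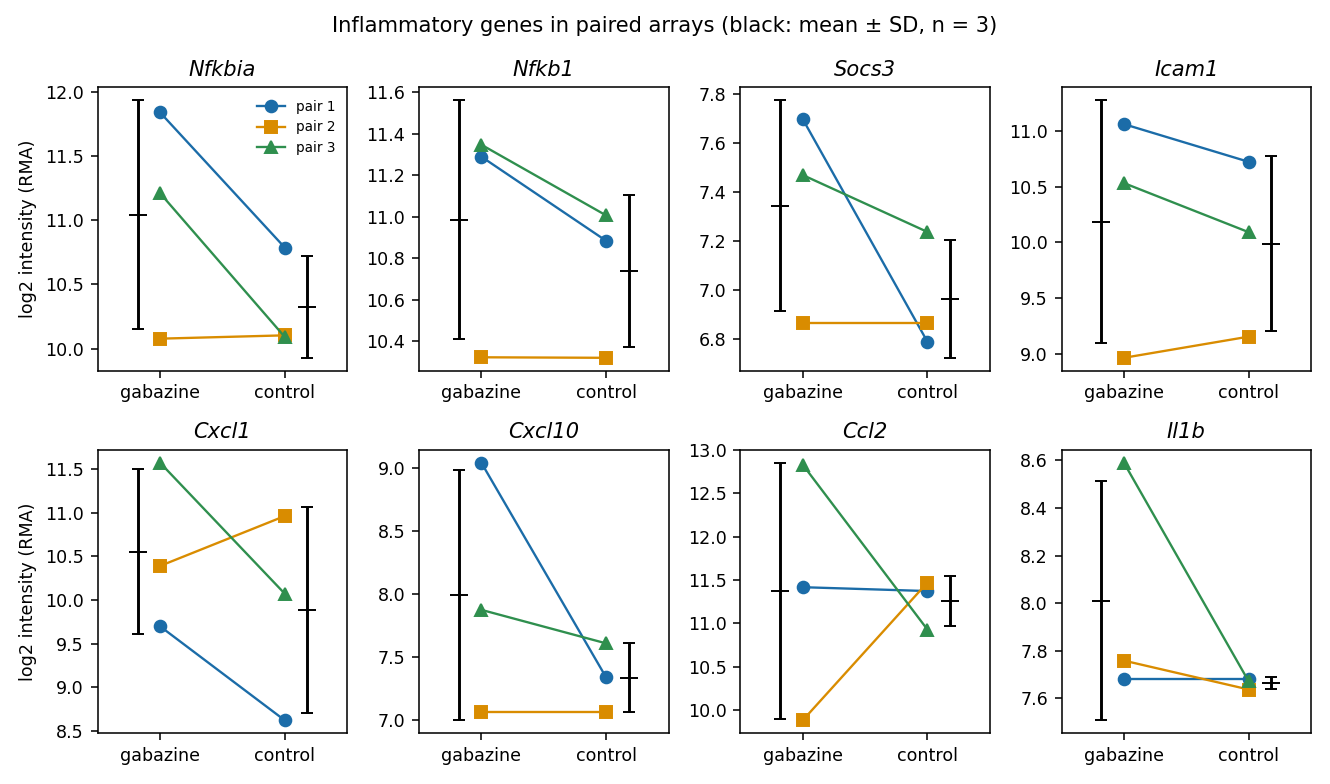
Log2 intensity (y axes, with a scale for each gene) of 8 inflammatory genes in the gabazine and control sample of each pair, joined by a line, with the mean ± SD of 3 samples per group in black. The lines of pairs 1 and 3 slope down towards the control for Nfkbia, Nfkb1, Socs3, Icam1, Cxcl1 and Cxcl10, while the line of pair 2 is level or slopes the other way.

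Pair 2 was singled out after these values were seen, and leaving it out changed the count of genes past the unadjusted threshold more than leaving out either of the other pairs. Without it, 6 of the 36 were higher at an unadjusted limma p under 0.05, beside 3.69% of all genes: Nfkbia, Cxcl1, Nfkb1, Icam1, Rela and C1qb. Only Ptprc was lower in that fit (beside 3.48% of all genes), which has 1 residual degree of freedom, and 0 probe sets of the array passed after adjustment. Nfkbia then had a log2 fold change of 1.09 (unadjusted limma p 0.0027). In both pairs 1 and 3 together, 14 of the 36 genes were higher (8 of the 15 inflammatory genes), beside 21.4% of all genes, and 3 were lower, beside 21.5%. Without pair 3, in contrast, 0 genes were higher (beside 1.17% of all genes) and 3 were lower at that threshold (Fcgr2b, Tlr2 and Il1a, beside 2.63%). Without pair 1, Aif1 was higher (beside 3.12%) and 0 genes were lower (beside 2.65%).

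Among the microglial surface and lineage genes, Csf1r, the receptor on which microglia depend, had 11.58, 10.22 and 10.71 with gabazine, against 11.83, 10.31 and 10.72 in controls. It was slightly lower in each pair, with a mean of -0.11 (standard error 0.06, 95% interval -0.32 to 0.09). P2ry12, the purinergic receptor of surveying microglia, had 8.40, 8.78 and 9.41 with gabazine, against 9.58, 8.81 and 9.68 in controls. Gabazine sample 1 was the low sample, with a ratio of -1.18, but its other probe set had 0.51 in that pair, so that no direction can be given for the gene. Ptprc, the leukocyte phosphatase CD45, had 9.30, 8.74 and 10.13 with gabazine, against 10.08, 8.69 and 10.61 in controls. Its mean was -0.40 (standard error 0.20) on this probe set and 0.17 (standard error 0.18) on the other, which again ran in opposite directions in pair 1 (-0.78 and 0.61).

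Cx3cr1, the receptor for the neuronal chemokine Cx3cl1, had 8.83, 7.26 and 8.34 with gabazine, against 8.17, 7.26 and 8.24 in controls, with a mean of 0.26 (standard error 0.17). Most of that came from pair 1 (0.67). Itgam, the integrin CD11b, had ratios of 0.81, -0.33 and 0.04, and its mean of 0.18 turned to -0.14 without pair 1. Aif1, the calcium-binding protein Iba1, had -0.24, 0.37 and 0.26 on a probe set that may match more than 1 transcript, and -0.07, 0.09 and 0.00 on its other probe set. Laptm5, a lysosomal membrane protein of blood cells, and Cd53, a leukocyte tetraspanin, had means of 0.00 (standard error 0.04) and -0.23 (standard error 0.14). The other probe set of Laptm5 had ratios of 0.35, -0.23 and -0.04, and so ran opposite to the first in pairs 1 and 2. In this role group of 8 genes, 3 had all pairs on the same side of 0 (Cx3cr1, Csf1r and P2ry12), and P2ry12 did so on only 1 of its probe sets.

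The 3 chains of complement C1q, the recognition molecule of the classical pathway, were above 0 on average. C1qa had 13.65, 12.17 and 11.58 with gabazine, against 13.67, 12.17 and 11.06 in controls, with a mean of 0.17 (standard error 0.15). C1qb had 13.07, 10.82 and 10.90 with gabazine, against 12.62, 10.99 and 10.61 in controls, with a mean of 0.19 (standard error 0.15). C1qc had 12.94, 10.60 and 11.58 with gabazine, against 12.74, 10.78 and 10.92 in controls, with a mean of 0.23 (standard error 0.20). For each chain the samples of replica 1 were the 2 highest of the 6, and all 3 chains were higher in pair 3, where the ratios were 0.51, 0.28 and 0.66.

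Of the phagocytic and antigen presentation genes, Cd68 (a lysosomal glycoprotein), Ctss (the protease cathepsin S), Lyz2 (lysozyme) and Cd74 (the invariant chain of class II molecules) had means between -0.19 and 0.15. Cd74 was identical in both arrays of pairs 2 and 3. The innate immune receptors and adaptors ranged more widely in single pairs. Fcgr2b, the inhibitory Fc receptor, had 10.27, 8.79 and 9.88 with gabazine, against 11.04, 9.41 and 9.45 in controls. It was lower in pairs 1 and 2 (-0.77 and -0.62) and higher in pair 3 (0.43), with a mean of -0.32 (standard error 0.31). The adaptor Tyrobp and its partner receptor Trem2 had means of -0.12 (standard error 0.06) and 0.08 (standard error 0.07), and the other probe set of Trem2 had 0.05 (standard error 0.09). Cd14, the co-receptor for lipopolysaccharide, had 0.13 (standard error 0.09), and the Toll-like receptors Tlr2 and Tlr4 had -0.12 (standard error 0.16) and -0.09 (standard error 0.05).

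Most of the microglial genes stood highest in replica 1 in both conditions. With each array centred on its median, 17 of the 21 were highest in replica 1 among the gabazine samples and 16 of the 21 among the controls, while 32.1% and 41.0% of all genes were. On the deposited scale the counts were 17 and 15, and after quantile normalization 18 and 16. Their median level stood 0.41 above the mean of the 3 replicas in replica 1 with gabazine, and 0.46 above it in controls. Tyrobp, for instance, had 12.29, 9.44 and 10.81 with gabazine, against 12.50, 9.58 and 10.81 in controls. After centring, the range of its level over the 3 replicas (mean of both conditions) was 2.10, that of C1qa 2.37 and that of C1qb 2.12, where the log2 fold changes with gabazine were -0.12, 0.17 and 0.19. In 33 of the 36 genes (91.7%) this range exceeded the size of the log2 fold change, as it did in 95.8% of all genes, the exceptions being Cxcl10, Nfkb1 and Nfkbia.

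Replica 1 also stood high in markers of other cells, and their part in this was not tested. Of 12 meningeal and fibroblast markers, 11 were highest in replica 1 with gabazine and 10 in controls, and the log2 of their summed centred intensity was 15.89, 14.95 and 14.26 in gabazine samples 1, 2 and 3, against 15.65, 14.04 and 14.46 in controls. Among 6 choroid plexus markers 5 were highest in replica 1 in both conditions, and Ttr, the transthyretin of that tissue, had 13.03, 10.93 and 8.43 with gabazine, against 8.44, 10.79 and 8.36 in controls. The 51 other microglia and macrophage genes measured took the same place, with 32 highest in replica 1 with gabazine and 33 in controls. The same log2 sum over the 21 microglial genes was 16.35, 15.78 and 15.66 with gabazine, against 16.45, 15.88 and 15.67 in controls, so that it was slightly lower with gabazine in each pair. Such a sum gives most weight to the brightest genes. By count on the deposited scale, 8, 5 and 13 of the 21 were higher with gabazine in pairs 1, 2 and 3, and 13, 14 and 4 were lower. Over the 51 other microglia and macrophage genes the log2 sum was 17.05, 16.80 and 16.74 with gabazine, against 17.07, 16.76 and 16.66 in controls, lower in pair 1 and higher in pairs 2 and 3. Over 13 lymphocyte and granulocyte markers it was 10.24, 10.36 and 10.75 with gabazine, against 10.39, 10.35 and 10.68 in controls.

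The inflammatory genes did not share this order. After centring, 13 of the 15 were highest in replica 2 among the controls (86.7%), as were 21.9% of all genes. The count was also 13 after quantile normalization, and on the deposited scale, where both arrays of replica 2 lay lower as a whole, it was 4 of 15 (26.7%), beside 0.647% of all genes. Among the gabazine samples 8, 5 and 2 were highest in replicas 3, 1 and 2 after centring (53.3%, 33.3% and 13.3%), close to the 47.6%, 32.1% and 20.3% of all genes. Cxcl1 had the widest range of the centred control levels, at 3.07, with control 2 the highest.

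**Figure D3:**
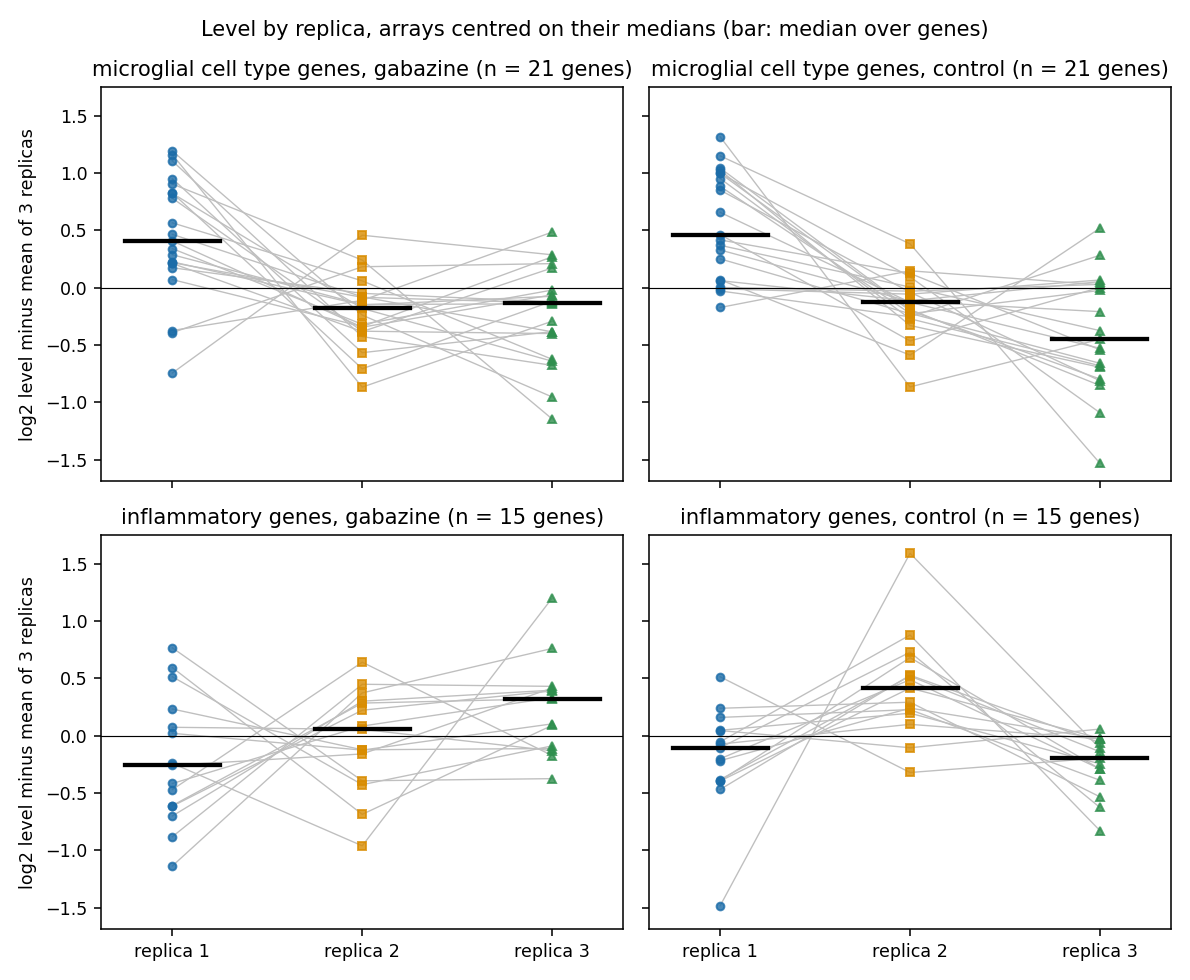
Centred log2 level of each gene minus its mean over the 3 replicas (y axis) in replicas 1, 2 and 3 (x axis), with a line for each gene and a black bar for the median, for the 21 microglial genes (top) and the 15 inflammatory genes (bottom) in gabazine (left) and control (right) samples. The microglial genes stand highest in replica 1 in both conditions (medians 0.41 and 0.46), and the control inflammatory genes stand highest in replica 2, where on the deposited scale 4 of the 15 do.

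A promoter of the C1q family is shown because the microglial genes shared a motif that the choice of genes did not use. The core element of PU.1, the transcription factor that specifies macrophages and microglia, was searched as GAGGAA on both strands. It was found in 13 of the 16 microglial promoters in the table (81.2%), in 2 of the 12 inflammatory ones (16.7%, those of Il1a and Tnf) and in 27.6% of all promoters of this length. C1qb lies at chr5:154407778-154408077 of GRCr8, minus strand, and has the core at position -247 on its own strand and at position -90 on the opposite strand, both in capitals. A kappaB match at position -245 shares bases with the farther core, the only such overlap among the 28 promoters, and 53 of all promoters had one.
C1qb: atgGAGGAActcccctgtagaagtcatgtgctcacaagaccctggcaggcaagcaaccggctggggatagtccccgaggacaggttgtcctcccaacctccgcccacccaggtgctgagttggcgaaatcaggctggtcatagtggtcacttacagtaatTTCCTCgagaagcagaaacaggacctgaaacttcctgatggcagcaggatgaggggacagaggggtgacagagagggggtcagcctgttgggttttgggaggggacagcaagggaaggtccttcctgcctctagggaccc

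Further genes of these pathways gave a mixed picture, in which no list of the 11 examined held a gene past the adjusted threshold. Of 39 other NF-kappaB subunits, regulators and targets measured, 2 were higher and 3 lower at an unadjusted limma p under 0.05, beside 2.37% and 2.84% of all genes. Their median log2 fold change was 0.02. Ptgs2, which encodes the inducible cyclooxygenase that makes prostaglandins, had the highest change of those called, with 11.38, 10.48 and 12.66 with gabazine, against 10.37, 8.97 and 9.29 in controls. It was higher in each pair, and every gabazine sample stood above every control. Traf6, the ubiquitin ligase of Toll-like and interleukin-1 receptors, had -0.35 (standard error 0.06). Zfp36, which destabilises cytokine messages, and Gadd45b, an NF-kappaB target also induced by activity, were chosen after their values were seen and had 0.69 (standard error 0.16) and 0.88 (standard error 0.34).

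Of 51 other cytokines, chemokines and receptors 2 were higher and 0 lower at the unadjusted threshold, beside 2.37% and 2.84% of all genes. The 2 were Cxcl11, an interferon-inducible chemokine (0.34, standard error 0.07), and Cx3cl1, the neuronal ligand of Cx3cr1 (0.20, standard error 0.03). Cx3cl1 had nearly equal ratios of 0.21, 0.21 and 0.20. Of 37 interferon and JAK-STAT genes, 1 was higher and 3 were lower, beside the same shares of all genes. Ifi27 was the higher one (0.22, standard error 0.04), and Tyk2, a Janus kinase, was the lowest of the 3 (-0.26, standard error 0.05). The 51 other microglia and macrophage genes included 2 higher and 4 lower at that threshold, beside 2.37% and 2.84% of all genes, with a median of -0.06. Of them 12 (23.5%) were lower in all 3 pairs, beside 10.8% of all genes. Gpnmb, a glycoprotein of phagocytes, had 0.19 (standard error 0.04) and Itgb2, the beta chain partnered with Itgam, had -0.40 (standard error 0.12). Mmp12, the macrophage elastase, was chosen after its values were seen, since it had ratios of 0.00 and 0.02 in pairs 1 and 2 and -3.74 in pair 3, with 6.52, 5.70 and 7.44 with gabazine, against 6.52, 5.68 and 11.19 in controls.

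Markers of the other cells in the cultures had medians between -0.06 and 0.23. The medians were 0.18 for 16 neuron markers, 0.07 for 11 astrocyte markers, 0.16 for 11 oligodendrocyte lineage markers, -0.06 for 13 endothelial and mural markers, 0.23 for 12 meningeal and fibroblast markers, 0.00 for 13 lymphocyte and granulocyte markers and 0.18 for 6 choroid plexus markers. At the unadjusted threshold 2.37% of all genes were higher and 2.84% lower. The calls in these marker lists were Nefl, a neurofilament (0.55, standard error 0.14), Mog and Mbp, myelin proteins (0.36, standard error 0.07, and 0.24, standard error 0.06), and Lum, a collagen-binding proteoglycan (-0.30, standard error 0.03). The largest changes in lists without such a call were 0.90 for Gjb6, an astrocyte connexin, 0.63 for Kdr, an endothelial growth factor receptor, 0.29 for S100a8, a granulocyte calcium-binding protein, and 1.60 for Ttr, whose pair 1 alone had 4.59. The median of the meningeal list was 0.32, 0.56 and -0.28 in pairs 1, 2 and 3, an order unlike that of the inflammatory genes, and its part in their ratios was not tested.

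**Figure D4:**
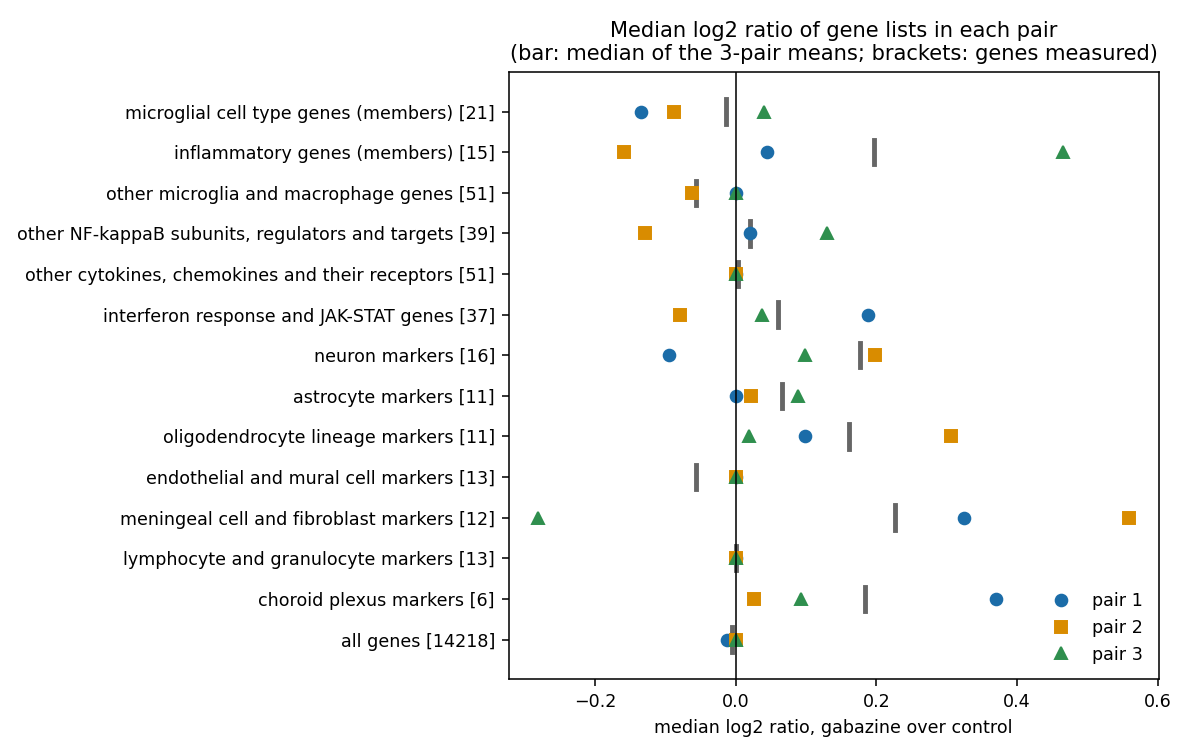
Median log2 ratio of gabazine over control (x axis) of the 21 microglial genes, the 15 inflammatory genes, the 11 other lists and all genes (rows, measured genes in brackets), with a point for each pair and a bar for the median of the 3-pair means. The inflammatory genes have 0.04, -0.16 and 0.47 in pairs 1, 2 and 3, and the meningeal and fibroblast markers have 0.32, 0.56 and -0.28.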

How the data were processed

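Total RNA of 3 gabazine samples (20 µM, 90 min) and 3 untreated control samples of hippocampal cultures was hybridised to 6 Affymetrix arrays. The deposited log2 intensities are the authors' RMA values. The version of RMA and whether the 3 replicas were normalized together are not given in the sources used here. RMA adjusts background and summarises probes without a detection call, so a dim value has no known distance to background. No depth applies to arrays, and their number limits the precision. Of the 31099 probe sets, 20832 had 1 gene symbol in the platform annotation, 436 several and 9831 none, and no gene was named from the last 2 kinds. Actb had no probe set with a single symbol and was not analysed here. Promoters came from RefSeq (GRCr8).

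Each gene was represented by its probe set with the highest mean, and other probe sets were given beside it. Limma 3.58.1 (R 4.3.3) was fitted to all probe sets with the pair as a block and eBayes, with p-values adjusted by Benjamini-Hochberg, and summaries used Python 3.11.15 and pandas 2.3.3. The pairing follows the methods, in which a replica is set against its own untreated sample, and same-numbered arrays deviated together from their group means (r = 0.794, 0.664 and 0.853). The fit was also run on simulated arrays with known changes. These had independent noise of the same size in every probe set and pair, unlike the real arrays. That run checks the working of the fit only and says nothing of the error in these data. Alternatives were no pairing, each pair left out, median centring, quantile and cyclic loess normalization, a filter on the 40% dimmest probe sets, a trended robust eBayes, a filter on tied probe sets, averaging the probe sets of each gene, and the methods' joint empirical distribution of the 3 ratios (share of 0.005 or less), without its estimator bounds. The 36 genes and the 11 other lists (291 entries, 260 measured) were chosen with earlier results of these data known. Every one of the 36 genes was named, and of each other list the genes with the highest and lowest change at an unadjusted p under 0.05, or else the gene with the largest change, with Gapdh. Genes outside this rule are marked as such in the text. No array was dropped and 0 columns of values were left out.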

Additional observations from a re-analysis of the deposited data

How the results depend on the processing

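Under every alternative run, no gene of the 36 passed the adjusted threshold in limma, and limma called 0 probe sets of the whole array except without the pairing, where 14 were called higher and 0 lower. Without the replicate block, none of the 36 genes reached an unadjusted p under 0.05 in either direction (0 and 0), as with it. The methods' joint distribution takes the share of probe sets at least as extreme in all 3 ratios. It put 1687 of the 31099 probe sets past its line upwards and 2265 downwards. Of the 36 genes, 8 were past the line upwards and 4 downwards, a count by gene whose share over all genes was not taken. Ccl2 was past the line in both directions. This distribution compares probe sets with each other and carries no replicate error. At an unadjusted p under 0.05 in limma, leaving out each pair gave between 0 and 6 genes higher and between 0 and 3 lower. Over all genes the shares were between 1.17% and 3.69% higher and between 2.63% and 3.48% lower. Leaving out tied probe sets gave 1 of the 28 genes kept higher, Nfkbia, beside 2.17% of all genes kept.

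The count of genes higher in every pair was 2. With each pair left out, only 2 pairs had to share a direction, and the count was between 2 and 14, beside 11.7% to 21.4% of all genes. It was 5 with median centring, 1 with quantile and 6 with cyclic loess normalization, where 12.7%, 11.8% and 17.3% of all genes were higher. The count lower in every pair was 2, against between 3 and 13 with each pair left out, beside 14.4% to 25.1% of all genes. It was 1 with median centring, 5 with quantile and 4 with cyclic loess normalization, where 10.7%, 17.7% and 13.2% of all genes were lower. The median log2 fold change of the 36 ran between -0.03 and 0.20 with each pair left out.

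With each pair left out, the sign turned for Itgam (between -0.14 and 0.43), Laptm5 (-0.034 and 0.034), Ctss (-0.086 and 0.065), C1qa (-0.0060 and 0.26), Tnf (-0.28 and 0.12), Il1a (-0.20 and 0.17), Il6 (-0.070 and 0.42), Ccl2 (-0.77 and 0.97), Ccl3 (-0.010 and 0.27), Ccl4 (-0.36 and 0.11), Rela (-0.043 and 0.26) and Tnfaip3 (-0.31 and 0.25). With median centring it turned for Laptm5 (-0.014) and Tnfaip3 (-0.0056). The cause was not tested. Cd74, identical in both arrays of pairs 2 and 3, had 0.15 over the 3 pairs and exactly 0 without pair 1. All other log2 fold changes of the 36 kept their sign and their side of the adjusted threshold. Leaving out the dimmest probe sets kept 30 of the 36 genes and leaving out tied ones kept 28.

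With 3 pairs and a median standard error of 0.16 among the 36 genes, the 95% interval reached a median of 0.52 to either side of the estimate. The values carry no detection call, a single time of exposure was sampled, and the whole cultures do not show which cells held a transcript.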
